A study of Mus musculus with 6 samples.

Results

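The genes described here are 31 interferon-stimulated genes (ISGs), genes whose transcription is switched on when a cell responds to interferon. They were found by symbol in the deposited expression table of osteoblast cultures, where each of the 31 symbols had 1 identifier among 29018 genes. All 31 passed the filter on low counts, which left 18221 genes for testing. Osteoblasts, the cells that lay down bone matrix, had been grown from the calvaria (the skull vault) of neonatal mice and taken through osteogenic differentiation. There were 3 libraries of wild-type cells (WT1, WT2 and WT3) and 3 of cells carrying a knockout of NDR1 (KO1, KO2 and KO3), a serine/threonine kinase encoded by Stk38. Both genotypes were differentiated, and the labels name no interferon, virus or other stimulus. Mouse strain, mouse sex, the knockout allele and the origin of the replicates are not given in the sources used here. Since nothing says that replicates came from separate animals or cultures, the p-values measure only how these libraries vary, and that variation may be technical.

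Type I interferons bind the receptor IFNAR1/IFNAR2 on the cell surface, and the kinases JAK1 and TYK2 bound to it phosphorylate STAT proteins, STAT2 among them. With IRF9 it forms part of the complex ISGF3, which binds the interferon-stimulated response element (ISRE) in the promoters of ISGs. Type II interferon has a receptor of its own, and the gamma-activated site (GAS) is the promoter element known for that response. Interferons are known in bone as brakes on osteoclast formation, and osteoblast lineage cells themselves respond to them.

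The 6 libraries held 61461870 to 76159034 counts each, and 2.32 to 2.48% of the counts were mitochondrial. Levels are given as CPM, counts per 1000000 of a library size scaled by TMM, whose factors ran from 0.981 to 1.02. Levels are compared between genes only as FPKM, which the authors scaled for transcript length. Stk38 stood at 50.3, 47.9 and 52.5 CPM in KO1, KO2 and KO3 and at 73.1, 77.4 and 79.4 CPM in WT1, WT2 and WT3, so the target was read in every KO library at a lower level (log2 change -0.61 ± 0.05 SE, quasi-likelihood F test of edgeR, Benjamini-Hochberg adjusted p = 8.10e-06). All 10 osteoblast markers looked at were present, with a summed level of 44252 to 46628 CPM in KO and 60345 to 62092 CPM in WT. Of these markers 5 fell in KO and 1 rose, against 11.7% and 11.2% of all genes tested, and 4 were not called. No pair of libraries held identical values. KO3 and WT2 stood apart from their own genotype in the ISGs, as described next, so the calls and the log2 changes are also given without each of them after the account of the single genes.

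KO3 held more ISG mRNA than every other library. The 31 ISGs summed to 832 CPM in KO1, 723 in KO2 and 1912 in KO3, and to 997 in WT1, 675 in WT2 and 982 in WT3. KO3 was the highest of the 3 KO libraries for 31 of 31 ISGs, against 33.5% of all 17977 genes with a mean of at least 10 counts per library. It was the highest of all 6 libraries for 29 of 31, against 17.4% of all genes, and the exceptions were Irf1 and Ifi27l2a. For 24 of 31 ISGs KO3 was at least 2-fold above the mean of KO1 and KO2, which held for 0.517% of all genes (93 genes). KO2 was the lowest KO library for 27 of 31, against 34.3% of all genes. Among the WT libraries WT2 was the lowest for 25 of 31, against 35.3% of all genes, and it was at least 1.5-fold below the mean of WT1 and WT3 for 16 of 31, against 1.99% of all genes. These are descriptions of single libraries and carry no test.

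**Figure D1:**
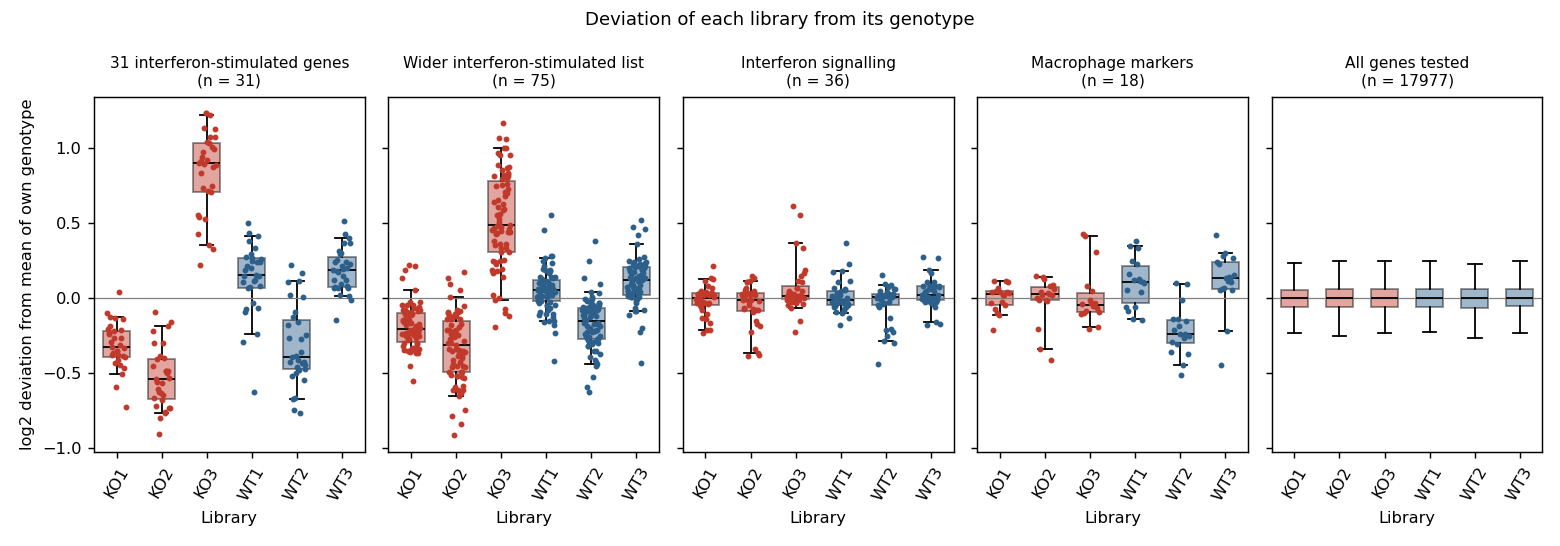
Deviation of each library from the mean of its own genotype, as log2(CPM + 0.5), for genes with a mean of at least 10 counts. The panels show the 31 ISGs, a wider list of ISGs, interferon signalling genes, macrophage markers and all genes. Boxes have whiskers from the 5th to the 95th percentile, and points are single genes, drawn in every panel but that of all genes. The 31 ISGs sit above 0 in KO3 and mostly below 0 in KO1, KO2 and WT2, with medians of 0.90, -0.33, -0.54 and -0.39.

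The size of these shifts is seen in the deviation of a gene's log2(CPM + 0.5) from the mean of its own genotype. The median over the 31 ISGs was -0.33 in KO1, -0.54 in KO2 and 0.90 in KO3, and 0.15 in WT1, -0.39 in WT2 and 0.19 in WT3. No ISG was below its KO mean in KO3, where the deviations ran from 0.22 to 1.23. The coefficient of variation of CPM between the 3 libraries of a genotype had a median of 60.7% over the ISGs in KO and 24.0% in WT, where all genes had 7.08% and 7.24%. The variance between libraries had a median over the ISGs of 520 times counting noise in KO and 55.3 times in WT. For all genes the medians were 4.31 and 4.22 times. At an equal coefficient of variation this ratio rises with a gene's count. The medians therefore do not show how far sequencing depth limited the ISGs with few counts.

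Promoters were searched for 2 sequences, because the ISRE and the GAS define how this gene group is known to be controlled. RefSeq windows (mouse build GRCm38.p6) that reach from 250 bases before to 50 bases after a transcript's start were matched for 22 of the 31 ISGs. Dhx58, Ifi27l2a, Mx1, Mx2, Oas2, Parp14, Rtp4, Usp18 and Zbp1 are named only. The ISRE was searched as GAAA, any 2 bases and a second GAAA, and the GAS as TTC, any 3 bases and GAA, on both strands and with overlapping matches allowed. Of the 22 ISGs, 13 (59.1%) held an ISRE match, against 3.99% of 27025 genes with a window and 3.44% of all 32851 windows. A GAS match was held by 5 of the 22 (22.7%), against 9.55% of genes with a window and 8.30% of all windows. A match is a run of letters and does not show that a factor was bound.

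The stretches below lie before the start of the gene, are printed 5′ to 3′ on the strand of the gene, and have in capitals the letters of the 1 motif that each is shown for, on either strand. Isg15, chr4:156200860-156200911 on the minus strand, is shown for its 3 overlapping ISRE matches in 1 run.
Isg15: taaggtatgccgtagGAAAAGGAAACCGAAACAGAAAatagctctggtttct
Bst2, chr8:71537572-71537617 on the minus strand, and Oas1a, chr5:120907526-120907560 on the minus strand, each hold 2 overlapping ISRE matches. The Bst2 stretch also holds a GAS match, which overlaps the first ISRE match and is not marked.
Bst2: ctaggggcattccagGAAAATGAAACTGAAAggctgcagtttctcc
Oas1a: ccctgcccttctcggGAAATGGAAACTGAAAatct
Ifit1, chr19:34640770-34640828 on the plus strand, and Ddx60, chr8:61928019-61928086 on the plus strand, hold 2 separate matches each, read on the opposite strand in Ifit1 and on the strand of the gene in Ddx60.
Ifit1: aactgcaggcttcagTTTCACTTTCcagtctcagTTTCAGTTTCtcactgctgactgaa
Ddx60: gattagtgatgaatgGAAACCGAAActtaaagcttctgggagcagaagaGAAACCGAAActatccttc
Ifit3, chr19:34583358-34583431, and Ifit3b, chr19:34607754-34607827, both on the plus strand, are shown because their stretches are alike at 74 of 74 bases.
Ifit3: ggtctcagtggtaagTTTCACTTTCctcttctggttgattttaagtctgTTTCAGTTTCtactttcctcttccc
Ifit3b: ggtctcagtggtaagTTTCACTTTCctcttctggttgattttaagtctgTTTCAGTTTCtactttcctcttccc
Gbp2, chr3:142620589-142620628 on the plus strand, and Rsad2, chr12:26456548-26456587 on the minus strand, hold 1 ISRE match each.
Gbp2: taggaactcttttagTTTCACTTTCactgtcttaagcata
Rsad2: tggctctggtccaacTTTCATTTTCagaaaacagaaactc
Irf1, chr11:53769909-53769947 on the plus strand, is shown for its GAS match.
Irf1: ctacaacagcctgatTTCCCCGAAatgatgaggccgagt

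The 13 ISGs with an ISRE match stood in KO3 at a median of 2.91 times the mean of KO1 and KO2 (1.53 to 3.54), and the 9 without one at 2.20 times (1.26 to 4.90), so the ranges overlapped. Among all genes tested that were at least 2-fold above in KO3 and had a window, 27 of 55 (49.1%) held an ISRE match. With the 31 ISGs and the wider list of ISGs below left out, 2 of 17 (11.8%) did. Genes in neither list can still be ISGs.

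The IFIT proteins bind viral RNA and block its translation, and their genes lie side by side on chromosome 19, from Ifit2 at 34528094 to Ifit1 at 34627409 in the deposited coordinates, whose build is not settled. Ifit1, which binds RNA lacking a host-type cap, stood at 65.2, 54.0 and 174 CPM in KO1, KO2 and KO3 and at 52.8, 34.8 and 63.1 CPM in WT1, WT2 and WT3. Ifit3, a partner that stabilises IFIT1, stood at 58.3, 46.1 and 168 CPM in KO and 45.9, 31.7 and 56.0 CPM in WT. Ifit3b, its near copy, stood at 23.9, 18.0 and 64.0 CPM in KO and 17.9, 10.8 and 17.8 CPM in WT. In all 3 genes KO3 was the highest library, at 2.91 to 3.21 times the mean of KO1 and KO2, and WT2 the lowest. The genotypes overlapped for Ifit1 and Ifit3 and did not for Ifit3b, where KO2 stood just above WT1. The log2 changes were 0.96 ± 0.38 for Ifit1, 1.03 ± 0.41 for Ifit3 and 1.19 ± 0.40 for Ifit3b (SE, n = 3 per genotype), with edgeR's adjusted p = 0.107, 0.107 and 0.0592, so none passed. Ifit3 shares 51.2% of its 50-base words with Ifit3b in the reference transcripts, so how reads were divided between this pair is uncertain. Ifit2, whose product can promote cell death, stood at 22.1, 21.3 and 30.6 CPM in KO and 20.8, 21.9 and 22.9 CPM in WT. It differed least of the 4 between libraries, with KO3 at 1.41 times the other KO libraries and WT2 between WT1 and WT3, and its promoter window held no ISRE match.

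Isg15 encodes a ubiquitin-like protein that is attached to other proteins, and Usp18 the protease that removes it and that also damps signalling at IFNAR2. Isg15 stood at 44.7, 35.8 and 142 CPM in KO1, KO2 and KO3 and at 59.8, 27.7 and 63.8 CPM in WT1, WT2 and WT3. KO3 was 3.54 times the mean of KO1 and KO2, and WT2 was 0.448 times the mean of WT1 and WT3, below every KO library. Usp18 stood at 16.2, 15.8 and 58.6 CPM in KO and 21.9, 13.4 and 18.9 CPM in WT. Here too KO3 was the highest library and WT2 the lowest, while KO1 and KO2 lay within the WT range. Neither passed the test (log2 change 0.56 ± 0.47 for Isg15 and 0.74 ± 0.44 for Usp18, edgeR's adjusted p = 0.465 and 0.282). On the FPKM scale Isg15 in KO3 had the highest level of the 31 ISGs in any library, at 193 FPKM, against 61.05 and 49.0 FPKM in KO1 and KO2 and 78.6, 36.5 and 84.0 FPKM in WT.

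The 4 transcription factors had a median KO3 level 1.81 times the other KO libraries, the lowest median of the groups by role. Singly they ran from 1.26 times (Irf1) to 2.68 times (Irf7), and some effectors lay lower than Irf7, such as Gbp2 at 1.73 times. Stat2, the STAT of the complex ISGF3, stood at 99.5, 82.4 and 188 CPM in KO and 101, 75.2 and 98.8 CPM in WT. Irf9, its DNA-binding partner, stood at 72.8, 72.2 and 113 CPM in KO and 71.5, 58.5 and 69.5 CPM in WT. Irf7, which drives interferon alpha genes, stood at 27.0, 23.7 and 67.9 CPM in KO and 29.2, 19.0 and 28.5 CPM in WT. For each of these KO3 was the highest library and WT2 the lowest, and the 3 KO values of Irf9 lay above its 3 WT values. None passed the test, with edgeR's adjusted p = 0.277 for Stat2 (log2 change 0.43 ± 0.25), 0.119 for Irf9 (0.37 ± 0.15) and 0.239 for Irf7 (0.63 ± 0.34). Irf1, which responds to type II interferon and whose window holds a GAS match and no ISRE match, behaved otherwise. It stood at 22.2, 22.7 and 28.3 CPM in KO and 27.6, 29.9 and 31.2 CPM in WT, so KO3 was 1.26 times the other KO libraries, the smallest such ratio of the 31, and was still below WT2 and WT3. Its log2 change was -0.28 ± 0.09 (edgeR's adjusted p = 0.0581).

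**Figure D2:**
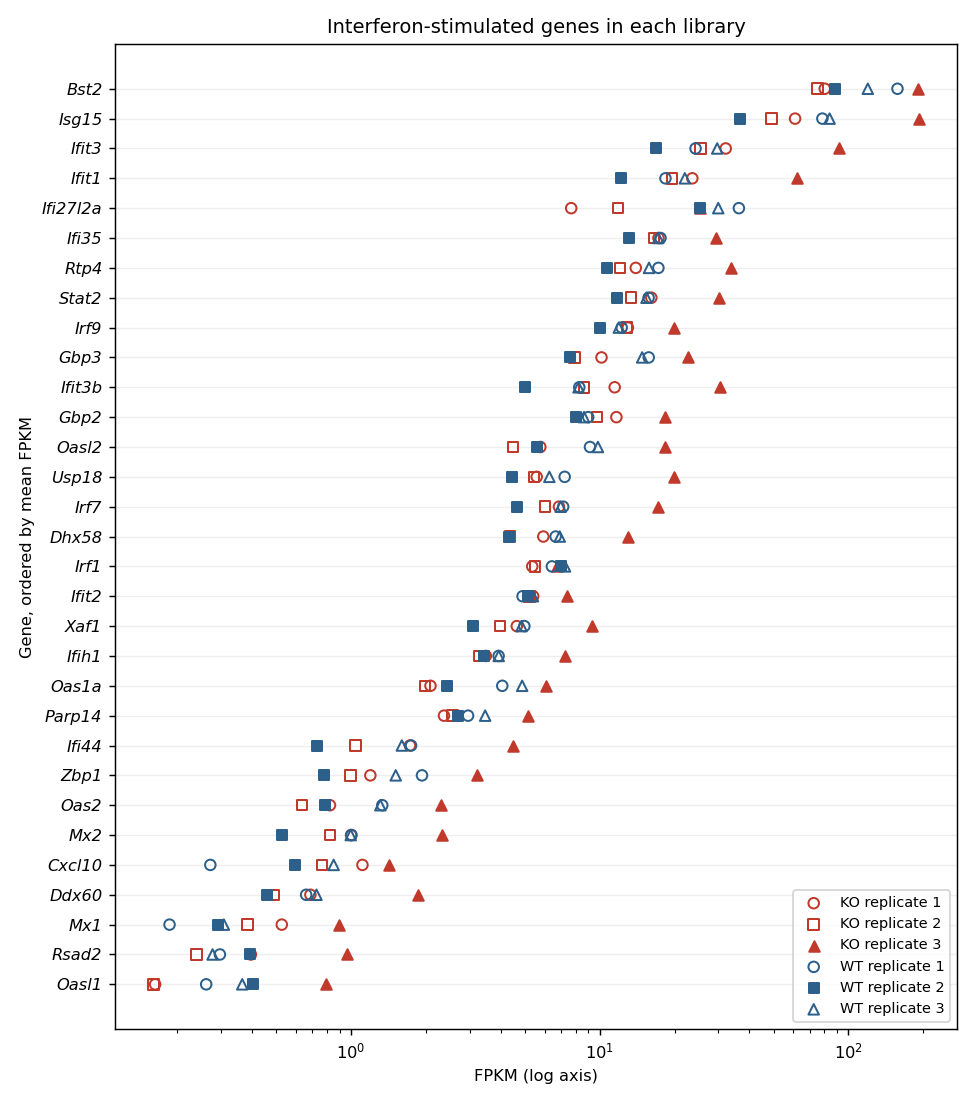
Level of each of the 31 ISGs in each library, in FPKM on a log axis, ordered by mean FPKM, with KO and WT libraries in separate colours. KO3 is the highest point for 29 ISGs, and the exceptions are Irf1 and Ifi27l2a.

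The oligoadenylate synthetase family makes the messenger that activates RNase L when double-stranded RNA is present, and its members here lie on chromosome 5. Oas1a stood at 4.10, 3.89 and 12.1 CPM in KO1, KO2 and KO3 and at 8.29, 4.95 and 9.94 CPM in WT1, WT2 and WT3. Oas2 stood at 3.82, 2.95 and 10.8 CPM in KO and 6.45, 3.78 and 6.32 CPM in WT. Oasl2, an OAS-like protein, stood at 38.3, 29.7 and 123 CPM in KO and 63.1, 38.7 and 67.8 CPM in WT. In these 3 genes KO3 lay above every WT library, while KO1 and KO2 lay below the lowest WT library, except that KO1 of Oas2 was just above WT2. Oas1a shares 57.6% of its 50-base words with Oas1g, so its counts are uncertain. Oasl1, which represses translation of Irf7, was the lowest ISG in FPKM (0.163, 0.160 and 0.792 in KO, 0.262, 0.403 and 0.365 in WT). Its counts were 34, 28 and 168 in KO and 49, 76 and 71 in WT, and KO3 was 4.90 times the mean of KO1 and KO2 in CPM, the largest ratio of the 31. The log2 changes of the family ran from -0.20 ± 0.41 (Oas1a) to 0.17 ± 0.44 (Oasl2), with edgeR's adjusted p = 0.787 to 0.958.

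The GTPases held both ISGs that rose in KO. Mx1, a dynamin-like GTPase that blocks influenza-type viruses, had 143, 85 and 247 counts in KO1, KO2 and KO3 and 46, 71 and 79 in WT1, WT2 and WT3, or 1.87, 1.36 and 3.21 CPM against 0.703, 1.08 and 1.18 CPM. Gbp2, a guanylate-binding protein that attacks the vacuoles of intracellular pathogens, stood at 30.6, 25.5 and 48.5 CPM in KO and 24.5, 21.8 and 23.5 CPM in WT. The genotypes did not overlap for either gene, although KO2 lay near the highest WT library in both. Mx1 had a log2 change of 1.12 ± 0.34 and Gbp2 one of 0.59 ± 0.19 (2.15 ± 0.958 against 0.987 ± 0.251 CPM and 34.9 ± 12.1 against 23.3 ± 1.37 CPM, SD, n = 3), with edgeR's adjusted p = 0.0389 and 0.0491. Both calls held without KO2 and were lost without any other single library. Without KO1, KO3, WT1, WT2 and WT3 in turn edgeR's adjusted p was 0.0666, 0.165, 0.131, 0.0816 and 0.0628 for Mx1 and 0.0646, 0.0648, 0.103, 0.148 and 0.122 for Gbp2. Over all alternatives it ran from 0.0158 to 0.183 and from 0.0108 to 0.247. Mx2, the relative of Mx1, stood at 3.80, 3.13 and 8.85 CPM in KO and 3.97, 2.09 and 3.92 CPM in WT. Gbp3, a further guanylate-binding protein, stood at 34.6, 26.9 and 78.0 CPM in KO and 55.6, 26.7 and 52.3 CPM in WT, where WT2 was 0.495 times the mean of WT1 and WT3 and lay level with KO2. Neither passed (log2 change 0.66 ± 0.38 for Mx2 and 0.05 ± 0.37 for Gbp3, edgeR's adjusted p = 0.263 and 0.943).

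The 4 sensors of foreign nucleic acid and their helpers had KO3 as their highest library, and their genotypes overlapped. Ifih1, which encodes the RNA sensor MDA5, stood at 29.6, 27.9 and 62.2 CPM in KO and 34.7, 30.3 and 34.6 CPM in WT. Dhx58, which encodes its helper LGP2, stood at 20.2, 14.8 and 44.9 CPM in KO and 23.6, 15.3 and 24.5 CPM in WT. Zbp1, a sensor of Z-form nucleic acid that can trigger necroptosis, stood at 4.41, 3.67 and 11.9 CPM in KO and 7.38, 3.0004 and 5.78 CPM in WT. KO1 and KO2 lay within or below the WT range in each. Ddx60, a helicase reported to assist RNA sensing, stood at 6.23, 4.45 and 17.1 CPM in KO and 6.24, 4.34 and 6.84 CPM in WT, so that KO1 and KO2 lay within the WT range while KO3 was 3.19 times their mean. None of the 4 passed (log2 changes of 0.27 ± 0.25 for Ifih1, 0.34 ± 0.34 for Dhx58, 0.31 ± 0.43 for Zbp1 and 0.67 ± 0.41 for Ddx60, edgeR's adjusted p = 0.524, 0.553, 0.683 and 0.301).

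Bst2 encodes tetherin, which holds budding virus particles at the cell surface, and was with Isg15 the most abundant of the 31 in FPKM. It stood at 80.3, 74.98 and 190 FPKM in KO1, KO2 and KO3 and at 158, 88.4 and 120 FPKM in WT1, WT2 and WT3. KO1 and KO2 lay below every WT library and KO3 above every one, so the genotypes overlapped (75.5, 70.4 and 181 CPM against 154, 86.1 and 117 CPM, log2 change -0.12 ± 0.33, edgeR's adjusted p = 0.840). Rtp4, a transmembrane chaperone with antiviral activity, stood at 30.99, 26.7 and 75.3 CPM in KO and 39.7, 24.6 and 36.4 CPM in WT (0.40 ± 0.34, edgeR's adjusted p = 0.464). Rtp4 shares 11.6% of its 50-base words with a predicted gene, Gm45338. Cxcl10, a chemokine that draws T cells, had 202, 114 and 262 counts in KO and 45, 97 and 141 in WT, or 2.64, 1.82 and 3.41 CPM against 0.688, 1.48 and 2.10 CPM. WT1 rather than WT2 was its lowest library, and KO3 stood at 1.53 times the other KO libraries. With a log2 change of 0.88 ± 0.37 it did not pass (edgeR's adjusted p = 0.125).

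Among the other effectors, Ifi27l2a was the 1 ISG that fell in KO. This gene of the ISG12 family of small membrane proteins had 283, 358 and 946 counts in KO1, KO2 and KO3 and 1189, 832 and 1007 in WT1, WT2 and WT3. In CPM these were 3.70, 5.71 and 12.3 against 18.2, 12.7 and 15.01, so all KO libraries lay below all WT libraries, KO3 by a narrow margin. The means were 7.24 ± 4.50 and 15.3 ± 2.76 CPM (SD, n = 3), and the log2 change was -1.08 ± 0.34 (edgeR's adjusted p = 0.0474). The call held without KO3, where the log2 change was -1.71 ± 0.20 (edgeR's adjusted p = 2.29e-04), and was lost without KO1, KO2, WT1, WT2 or WT3 (adjusted p = 0.110, 0.156, 0.154, 0.0709 and 0.108). The highest adjusted p over all alternatives was 0.253.

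The remaining 5 effectors did not pass. Rsad2, which encodes viperin, an enzyme that makes a chain-terminating nucleotide, had 137, 68 and 339 counts in KO and 92, 120 and 88 in WT (1.79, 1.08 and 4.41 CPM against 1.41, 1.83 and 1.31 CPM). Ifi44 stood at 11.0, 6.66 and 28.9 CPM in KO and 11.6, 4.84 and 10.6 CPM in WT. Rsad2 was 1 of 2 ISGs with WT2 as the highest WT library, while for Ifi44 WT2 was 0.436 times the mean of WT1 and WT3, the smallest such ratio of the 31. Parp14, an ADP-ribosyltransferase, stood at 22.9, 24.8 and 50.4 CPM in KO and 29.8, 27.2 and 34.8 CPM in WT. Ifi35, a partner of NMI, stood at 30.98, 29.7 and 53.4 CPM in KO and 32.8, 24.5 and 32.1 CPM in WT. Xaf1, which antagonises the apoptosis inhibitor XIAP, stood at 22.7, 19.4 and 46.2 CPM in KO and 25.3, 15.7 and 24.6 CPM in WT. In all 5 the KO1 and KO2 values lay within or below the WT range and KO3 above it. Their log2 changes ran from 0.10 ± 0.25 (Parp14) to 0.79 ± 0.47 (Ifi44), with edgeR's adjusted p = 0.269 to 0.836.

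Counted over the 31 ISGs, KO against WT gave 2 that rose, against 11.2% of all genes tested, and 1 that fell, against 11.7%, while 28 were not called. The median log2 change of the ISGs was 0.40, where all tested genes had 0.00, and 27 of 31 had a positive change. The 3 KO libraries lay wholly above the 3 WT libraries for 4 ISGs (Ifit3b, Irf9, Mx1 and Gbp2), against 19.2% of all genes, and wholly below for 1, against 19.1%. The shares called, 6.45% and 3.23%, were below those of all genes but rest on few genes. The ISGs also varied more between KO libraries (median coefficient of variation 60.7%, against 7.08% for all genes). The part of this spread in the number of calls was not tested. The number of calls moved with the library left out. It was 5 that rose and 0 that fell without KO2, against 9.09% and 9.51% of all genes. The added calls were Ifit1, Ifit3 and Ifit3b, and 16 and 1 ISGs had an unadjusted p under 0.05 in edgeR's test. It was 0 in both directions without KO1, WT1, WT2 or WT3 in edgeR's test. In those fits 8.47 to 9.21% of all genes rose and 9.10 to 9.23% fell. An unadjusted p under 0.05 was reached there by 8, 4, 2 and 6 ISGs with a higher level and by 1, 2, 2 and 1 with a lower level in KO. The share of all genes at an unadjusted p under 0.05 is not given here for any fit, so these counts have no background. DESeq2 on all 6 libraries called 1 in each direction (Mx1 and Irf1), against 7.32% and 7.20% of all genes. Limma on log2(FPKM + 1) called 0 of the 26 ISGs that passed its filter, with 1 in each direction at an unadjusted p under 0.05. In that limma fit 18.1% of all genes rose and 9.89% fell.

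Without KO3 the median change had the opposite sign. KO3 was the highest KO library for all 31 ISGs, so leaving it out had to lower their changes. It was singled out on these same values, so the calls of this fit are a description only. In the fit of KO1 and KO2 against the 3 WT libraries, 0 ISGs rose, against 8.98% of all genes tested, and 6 fell, against 10.1%. An unadjusted p under 0.05 was reached by 2 with a higher and 9 with a lower level in KO. The median log2 change went from 0.40 to -0.12, and 9 of 31 ISGs had a positive change in place of 27. The 6 that fell in this fit were Ifi27l2a, Irf1 (log2 change -0.40 ± 0.07, edgeR's adjusted p = 0.00354), Bst2 (-0.71 ± 0.18, adjusted p = 0.0232), Oas1a (-0.95 ± 0.26, adjusted p = 0.0270), Parp14 (-0.36 ± 0.10, adjusted p = 0.0321) and Oasl2 (-0.73 ± 0.20, adjusted p = 0.0325). Over all alternatives edgeR, DESeq2 and limma gave adjusted p values up to 0.260 for Irf1, 0.938 for Bst2, 0.986 for Oas1a, 0.980 for Parp14 and 0.999 for Oasl2. Ifit1, Ifit3 and Ifit3b kept a positive change of 0.24 ± 0.19, 0.23 ± 0.19 and 0.44 ± 0.20 without KO3 and did not pass (edgeR's adjusted p = 0.457, 0.481 and 0.177).

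The other ISGs did not pass in the fit without KO3, and 22 of the 31 had a negative change there. Isg15 went from a log2 change of 0.56 to -0.33 ± 0.28 and Usp18 from 0.74 to -0.17 ± 0.16. Among the transcription factors Stat2 and Irf7 both stood at -0.01 (SE 0.12 and 0.16) and Irf9 at 0.12 ± 0.07. The sensors all had a negative change, of -0.21 ± 0.08 for Ifih1, -0.27 ± 0.19 for Dhx58, -0.12 ± 0.22 for Ddx60 and -0.41 ± 0.31 for Zbp1. Oas2 stood at -0.70 ± 0.25 and Oasl1 at -1.15 ± 0.38, below 0 like the other members of their family. Of the GTPases Mx1 stood at 0.71 ± 0.31, Gbp2 at 0.27 ± 0.09, Mx2 at 0.06 ± 0.27 and Gbp3 at -0.55 ± 0.26. Rtp4 stood at -0.22 ± 0.17 and Cxcl10 at 0.65 ± 0.40. Ifit2, Rsad2, Ifi44, Ifi35 and Xaf1 lay between -0.07 and 0.03. The adjusted p values of these genes in edgeR's test ran from 0.0629 (Oasl1) to 0.977 (Irf7).

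Without WT2 the median was 0.24, 24 of 31 were positive, and 0 ISGs were called in either direction, where 9.01% and 9.10% of all genes were. The lowest adjusted p in that edgeR fit was 0.0709 (Ifi27l2a, log2 change -1.19 ± 0.39). Without WT2 the changes were 0.75 ± 0.43 for Ifit1, 0.84 ± 0.47 for Ifit3, 0.99 ± 0.46 for Ifit3b, 1.19 ± 0.41 for Mx1 and 0.54 ± 0.23 for Gbp2. Isg15 stood at 0.27 ± 0.49, Usp18 at 0.57 ± 0.51, Stat2 at 0.31 ± 0.29, Irf7 at 0.46 ± 0.39 and Ddx60 at 0.50 ± 0.48. WT2 was the lowest WT library for each of these genes, so leaving it out had to lower their changes. Oas2, Oasl2 and Gbp3 had a negative change there (-0.12 ± 0.46, -0.04 ± 0.50 and -0.21 ± 0.36) and a positive one with WT2. For them too WT2 was the lowest WT library.

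**Figure D3:**
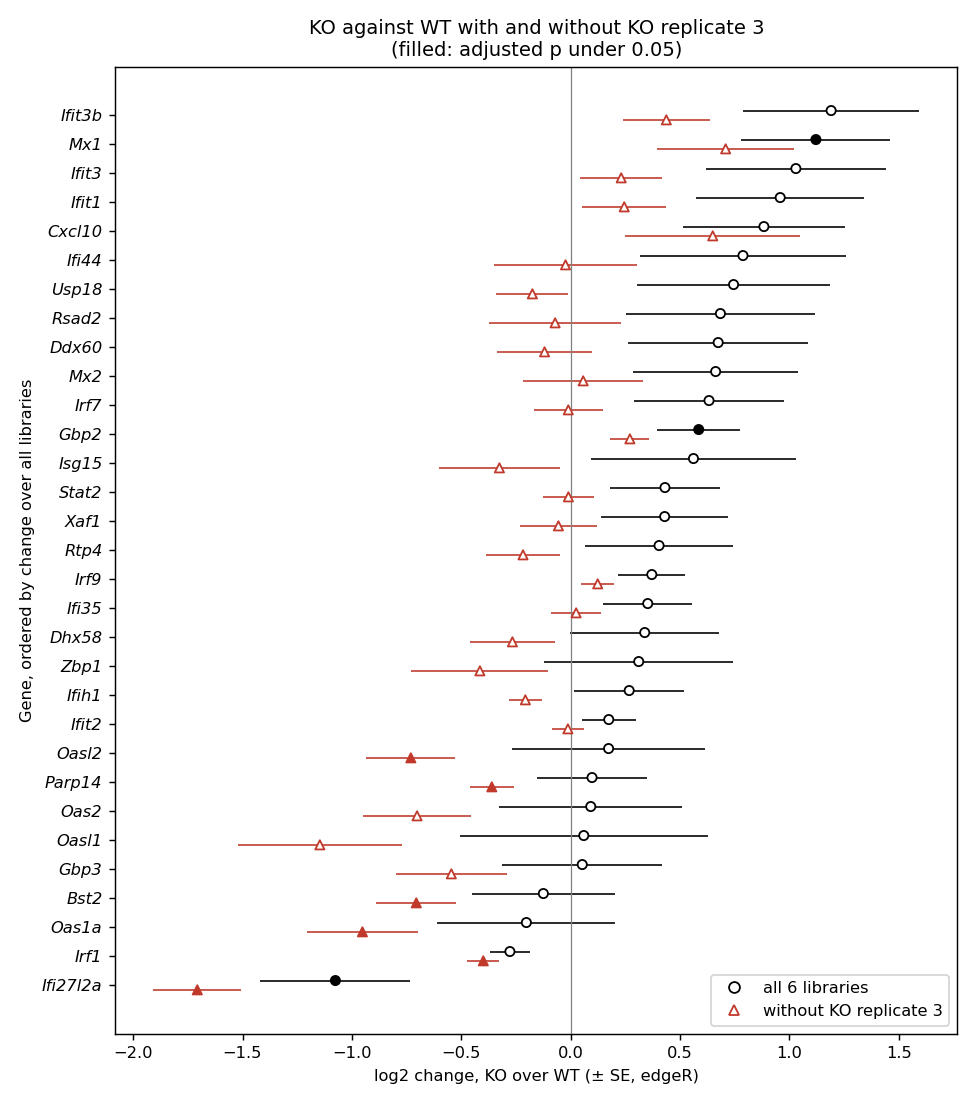
Log2 change of each ISG, KO over WT, with its SE, in the fit of all 6 libraries and in the fit without KO3, where filled points have an adjusted p under 0.05 (edgeR, Benjamini-Hochberg). Most ISGs lie to the right of 0 with KO3 and at or left of 0 without it, and the calls change from 2 that rose and 1 that fell to 0 and 6.

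KO1 and KO2 were also set against the WT libraries one gene at a time. Both lay within the range of the 3 WT libraries for 13 of 31 ISGs, against 18.5% of all genes. Both lay below it for 8, against 23.3% of all genes, and above it for 4, against 23.6%. The 6 libraries did not order by genotype: the summed ISG level ran WT2, KO2, KO1, WT3, WT1 and KO3 from lowest to highest. In the effector groups the KO3 level had a median of 3.60 times the other KO libraries for Isg15 and Usp18, 3.40 for the OAS family, 2.98 for the IFIT family and 2.76 for the sensors. It was 2.48 for the membrane and secreted group, 2.40 for the other effectors, 2.26 for the GTPases and 1.81 for the transcription factors.

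ISGs that stood higher in KO3 also tended to stand lower in WT2. Across the 31 ISGs the log2 ratio of KO3 to the other KO libraries and that of WT2 to the other WT libraries on log2(CPM + 0.5) had a Pearson's r of -0.64 and a Spearman's rho of -0.62. Across 17977 genes the same values were -0.02 and -0.02. The genes of one library share its depth and its culture and are not independent, so no test is given. Isg15, Ifi44 and Zbp1 were at one end, with WT2 at 0.448, 0.436 and 0.456 times the other WT libraries and KO3 at 2.95 to 3.54 times the other KO libraries. Irf1, Ifit2 and Cxcl10 were at the other, with WT2 at 1.02, 1.003 and 1.06 times and KO3 at 1.26 to 1.53 times. Oasl1 and Rsad2 stood outside this order, since WT2 stood at 1.28 and 1.35 times and KO3 at 4.90 and 3.06 times.

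**Figure D4:**
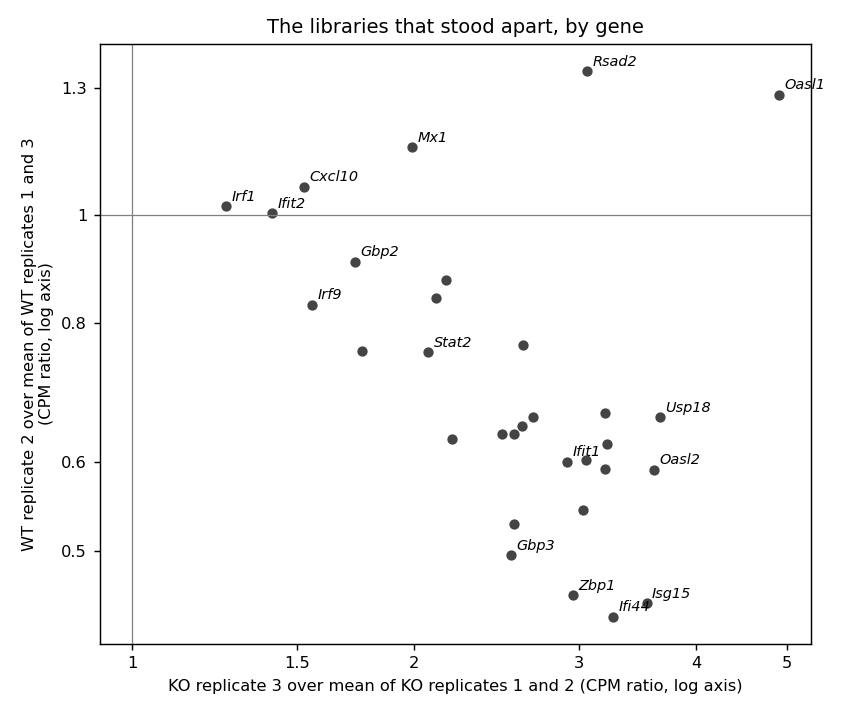
Ratio of KO3 to the mean of KO1 and KO2 against the ratio of WT2 to the mean of WT1 and WT3 for each of the 31 ISGs, both on log axes. The ISGs with the highest KO3 ratios mostly have WT2 ratios below 1, and Oasl1 and Rsad2 are the exceptions.

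The genes that carry the interferon signal did not show the KO3 pattern as a group. Of 45 listed genes for ligands, receptors, kinases, sensors and brakes 37 matched and 36 were tested. KO3 was at least 2-fold above KO1 and KO2 for 0 of 36, where only 0.517% of all genes were. It was at least 1.5-fold above for 2 of 36, against 1.75% of all genes. The median deviation in KO3 was 0.02. Ifnar1 stood at 96.5, 103 and 98.9 CPM in KO and 102, 109 and 106 CPM in WT, and Jak1 at 286, 276 and 282 CPM in KO and 280, 289 and 284 CPM in WT. Their levels in KO3 lay between those in KO1 and KO2. Ifnar2, Tyk2 and Irf3 likewise did not pass (log2 change 0.00 ± 0.06, 0.17 ± 0.06 and -0.01 ± 0.05, edgeR's adjusted p = 0.970, 0.0784 and 0.931). Ddx58, which encodes the RNA sensor RIG-I and is itself interferon-stimulated, had KO3 as its highest library. It stood at 99.7, 91.6 and 170 CPM in KO and 99.9, 87.8 and 102 CPM in WT and did not pass (log2 change 0.32 ± 0.19, edgeR's adjusted p = 0.284). Of 9 interferon genes listed Ifna4 matched, with 3 counts in WT3 and 0 in the other libraries, and was not tested, and the others, Ifnb1 among them, were not analysed here.

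Among the 36 signalling genes 6 rose in KO (16.7%, against 11.2% of all genes tested) and 1 fell (2.78%, against 11.7%). Socs3, a feedback inhibitor of cytokine receptors, stood at 74.9, 73.0 and 74.0 CPM in KO and 24.7, 28.3 and 28.7 CPM in WT (log2 change 1.44 ± 0.06, edgeR's adjusted p = 6.83e-08). Irf8, a transcription factor of myeloid cells, rose by 1.44 ± 0.24 and Ptpn6, a phosphatase of blood cells, by 1.03 ± 0.18 on the log2 scale (edgeR's adjusted p = 0.00140 and 0.00202). Stat3 rose by 0.14 ± 0.03 (edgeR's adjusted p = 0.00389), and Irf2, a repressor of ISGs, fell by 0.20 (adjusted p = 0.0230). The number that rose was 5 to 7 without any 1 library, where 8.47 to 9.21% of all genes rose. The single gene that fell was lost without each library but WT3, without which there were 2. In these fits 9.10 to 10.1% of all genes fell.

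A wider list of 81 further ISGs, of which 79 matched and 75 were tested, had KO3 as the highest KO library for 68 of 75, against 33.5% of all genes, and at least 2-fold above the mean of the others for 26 of 75, against 0.517%. In KO 11 of 75 rose (14.7%, against 11.2% of all genes tested) and 2 fell (2.67%, against 11.7%), with a median log2 change of 0.31. Slfn5, a Schlafen family gene, stood at 77.4, 74.8 and 88.2 CPM in KO and 181, 171 and 180 CPM in WT (log2 change -1.15 ± 0.06, edgeR's adjusted p = 2.58e-07). Ifitm1, a membrane protein that blocks virus entry, stood at 9.63, 8.47 and 7.31 CPM in KO and 5.46, 5.53 and 5.65 CPM in WT (0.61 ± 0.12, edgeR's adjusted p = 0.00453). In both genes the genotypes were separate, and in Ifitm1 KO3 was the lowest KO library. Ifitm3, its relative, rose by 0.37 ± 0.10 and Ifi207, of the p200 family, by 1.27 ± 0.25 (edgeR's adjusted p = 0.0198 and 0.00458). Tgtp1, whose near copy Tgtp2 makes its counts uncertain, rose by 1.57 ± 0.40 (edgeR's adjusted p = 0.0181). Eif2ak2, which encodes the RNA-activated kinase PKR, had 0.31 ± 0.13 (edgeR's adjusted p = 0.135). Without KO3 5 of the 75 rose, against 8.98% of all genes, and 10 fell, against 10.1%, with a median of -0.02. Without KO1, WT1, WT2 and WT3 in turn 6, 4, 3 and 5 rose and 1, 1, 3 and 1 fell, and without KO2 16 rose and 1 fell. In these fits 8.47 to 9.21% of all genes rose and 9.10 to 9.51% fell.

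Genes of antigen presentation, many of which respond to type II interferon, were highest in KO3 among the KO libraries for 23 of 26 tested, against 33.5% of all genes. In KO 8 of 26 fell (30.8%, against 11.7% of all genes tested) and 2 rose (7.69%, against 11.2%). B2m, the shared chain of class I molecules, stood at 372, 417 and 547 CPM in KO and 567, 590 and 586 CPM in WT (log2 change -0.38 ± 0.11, edgeR's adjusted p = 0.0274). H2-K1, a class I heavy chain from a family of near copies whose counts are uncertain, stood at 130, 140 and 183 CPM in KO and 210, 225 and 217 CPM in WT (-0.53 ± 0.10, edgeR's adjusted p = 0.00359). In both KO3 was nearest to WT and the genotypes did not overlap. H2-M3 fell too (-0.71 ± 0.16, edgeR's adjusted p = 0.00921). The peptide transporter genes Tap1 and Tap2 rose by 0.66 ± 0.13 and 0.37 ± 0.08 on the log2 scale (edgeR's adjusted p = 0.00397 and 0.00571). Nlrc5, the transactivator of class I genes, stood at 8.52, 6.94 and 15.95 CPM in KO and 7.32, 6.26 and 9.43 CPM in WT (0.45 ± 0.27, edgeR's adjusted p = 0.296). Without KO3 11 of 27 tested fell, against 10.1% of all genes, and 2 rose, against 8.98%. Without KO1, KO2, WT1, WT2 and WT3 in turn 3, 3, 4, 5 and 3 fell, where 9.10 to 9.51% of all genes did.

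Markers of other cells were set beside the ISGs, since a culture from bone can hold several cell types. In libraries of whole cultures, a different number of cells of one type and a different amount of RNA per cell cannot be told apart. The 18 macrophage markers summed to 1157, 1179 and 1068 CPM in KO1, KO2 and KO3 and to 538, 419 and 550 CPM in WT1, WT2 and WT3. Of these 15 of 18 rose in KO, against 11.2% of all genes tested, and 0 fell, among them the complement genes C1qc (log2 change 1.59 ± 0.11) and C1qb (1.48 ± 0.10), the lysosomal Cd68 (1.38 ± 0.10) and the mannose receptor Mrc1 (1.25 ± 0.10), with edgeR's adjusted p = 2.41e-06, 2.59e-06, 3.67e-06 and 6.57e-06. KO3, the library highest in ISGs, had the lowest macrophage sum of the 3 KO libraries and was the highest of them for 5 of 18 markers. WT2, the lowest WT library in ISGs, was also the lowest for 15 of 18 macrophage markers, against 35.3% of all genes. The part of the macrophage markers in the KO against WT changes of the ISGs was not tested. Osteoclast markers, 5 of 7 matched, summed to 235 to 240 CPM in KO and 454 to 460 CPM in WT, and endothelial markers, 5 of 7 matched, to 6.90 to 8.26 and 12.3 to 13.4 CPM. A sum is set mainly by its most abundant genes. In the osteoclast and in the endothelial list alike 2 of 5 fell, against 11.7% of all genes tested, and 0 rose. A positive change was seen for 2 of 5 in each. Lymphoid and plasmacytoid markers, 3 of 11 matched, summed to at most 0.474 CPM, and neutrophil markers, 3 of 5 matched, to at most 0.156 CPM. In KO3 these sums were 0.221 and 0.156 CPM, so the neutrophil sum, low everywhere, was the highest of the 6 libraries in KO3.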

How the data were processed

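Polyadenylated RNA was sequenced in 6 libraries, with group and replicate as the labels give them. The deposited table gives, per the file headers, a whole-number count and an FPKM for each gene and library, and the FPKM were computed by the authors. The counting method is not given in the sources used here, and the submitters' processing notes name cutadapt 1.9, HISAT2 2.0.4 and StringTie 1.3.4d, and list a human build although the identifiers are of mouse. Of the 31 ISGs, 0 have the coordinates of GENCODE M21 (GRCm38), so the build of the deposited coordinates is not settled. Every sample column was used.

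Counts of all genes were tested with edgeR 4.0.16 in R 4.3.3 (two-sided quasi-likelihood test, TMM scaling, filterByExpr, no covariate), with Benjamini-Hochberg adjustment over 18221 genes and calls at an adjusted p under 0.05. Each SE is the size of the log2 change divided by the root of its F. Library deviations used log2(CPM + 0.5) and genes with a mean of at least 10 counts. Between-library ratios of single genes are of CPM with no pseudocount. The steps were tested on simulated data. Alternatives were DESeq2 1.42.0, limma 3.58.1 on log2(FPKM + 1) for genes of mean FPKM 1 or more, other scalings, filters and dispersions, a replicate block and leaving out each library. The plan named all 31 ISGs, up to 4 called genes of lowest p per further list and fixed core genes, of which 1 is not reported here. Irf2 and the genes of the closing section were named after their values were seen. The ISGs and the lists were chosen with earlier results of these data known. Motifs were searched in RefSeq promoter windows of GRCm38.p6, and shared 50-base words in GENCODE M21 transcripts. Plots were drawn with matplotlib 3.10.9 in Python 3.11.15.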

Additional observations from a re-analysis of the deposited data

How the results depend on the processing

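The 31 log2 changes were recomputed under 15 alternatives. Of the resulting values 375 kept their sign and side of the threshold, 30 kept their sign and lost a call and 14 kept it and gained one. The sign changed in 36, of which 34 had no call under either setting and 18 were without KO replicate 3. The other 2 gained a call with the changed sign, Oasl2 and Parp14, both without KO replicate 3 (lowest and highest log2 change without any 1 library, -0.73 and 0.51 for Oasl2 and -0.36 and 0.30 for Parp14). ISGs that rose numbered 1 with DESeq2 and with robust dispersion, 0 without a count filter and with limma on log2(FPKM + 1), log2(FPKM + 0.1) or unfiltered FPKM, and 0 to 5 without any 1 library. ISGs that fell numbered 0 without TMM, without a count filter and with the 3 limma fits, and 0 to 6 without any 1 library. An unadjusted p under 0.05 was reached by 5 ISGs with a higher and 2 with a lower level in KO without a count filter, by 1 and 1 in each limma fit, and without TMM by 7 and 2. The wider ISG list had 3 that rose without a count filter, 3, 1 and 2 with limma, 7 with robust dispersion and 3 to 16 without any 1 library. It had 1 that fell without TMM, without a count filter, with limma and with robust dispersion, and 1 to 10 without any 1 library. Signalling genes that fell numbered 0 without TMM and 0 to 2 without any 1 library. Antigen presentation genes that rose numbered 1 with unfiltered FPKM and with robust dispersion. Those that fell numbered 4 with DESeq2, 3 without a count filter, 3, 2 and 2 with limma, 2 with robust dispersion and 3 to 11 without any 1 library. Of all genes, 2048 rose and 2131 fell, 2769 and 1629 without TMM, which moved the median by 0.05, and 1197, 1151 and 1341 fell with the 3 limma fits. Over all alternatives 6.16 to 18.1% of all genes rose and 4.62 to 12.4% fell. With the replicate number as a block, 6 ISGs rose and 2 fell, and 20 and 6 of the wider list. In that fit 10.5% of all genes rose and 10.8% fell. Over all tested genes, deviations of libraries of the same number had correlations of -0.055, -0.017 and 0.004. These values cover all genes and cannot decide whether the numbers pair the libraries. In the ISGs KO2 and WT2 had the lowest median deviations of their genotypes (-0.54 and -0.39) and KO3 and WT3 the highest (0.90 and 0.19). WT1 was the highest WT library for 17 ISGs and WT3 for 12. The cause of the moves in the calls was not tested. The median deviations of the ISGs in each library moved by less than the spread under both other scalings, and by FPKM it was 0.80 in KO3. Each of the 3 ISG calls was lost in 5 of the 6 fits that leave out 1 library.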

Other observations

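Genes outside the lists also stood high in KO3. Of the 50 genes with the highest ratio of KO3 to the mean of KO1 and KO2, on the log2(CPM + 0.5) scale and among 13373 genes with a mean of at least 100 counts, 18 were among the 31 ISGs, 11 were in the wider ISG list and 21 were in no list. The highest ratios belonged to Gm49380 (34.8 times), Gm21982 (12.2 times), Mfsd4a (5.62 times), H3c14 (5.36 times) and Phc3 (4.12 times), none of them in a list. The 21 also include genes named as relatives of listed ISGs, such as Ifi205 (2.87 times), Gbp10 (2.74 times) and Iigp1c (2.45 times). Being in no list thus does not mean that a gene is not an ISG. The highest of the 31 ISGs on this scale were Oasl2 (3.60 times), Usp18 (3.58 times) and Isg15 (3.53 times). Of the 50 genes lowest in WT2 relative to WT1 and WT3, 4 were among the 31 ISGs, 2 were in the wider list and 44 were in no list.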
